A study of Mus musculus with 6 samples.

Results

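The transmitter identity genes of glutamate and GABA neurons were examined in brain RNA of 24-month-old mice. These are Slc17a7, Slc17a6, Slc17a8, Slc32a1, Gad1 and Gad2, which were taken by gene symbol and found as 6 of the 38087 genes in the count table. RNA-seq compared 3 wild-type (WT) mice with 3 Sgo1-/+ mice, which carry a single functional copy of Sgo1, the gene of the centromere cohesin protector Shugoshin-1. All mice were C57BL6, were 24 months old and were kept without treatment, and each library was made from the frozen hemisphere of 1 mouse. By the methods, the tissue was cerebrum that included cortex and hippocampus, and from which the olfactory bulb, cerebellum and medulla had been left out. Both groups held 1 male (WT replicate 1 and Sgo1-/+ replicate 2) and 2 females. All WT libraries belonged to sequencing run 258 and all Sgo1-/+ libraries to run 259, so genotype cannot be told apart from run.

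A neuron that releases glutamate loads it into synaptic vesicles with a vesicular glutamate transporter, and a neuron that releases GABA makes it from glutamate with glutamate decarboxylase and loads it with the vesicular GABA transporter. Slc17a7 (VGLUT1) is the main vesicular glutamate transporter of cortical and hippocampal projection neurons and of cerebellar granule cells, whereas Slc17a6 (VGLUT2) prevails in thalamus, hypothalamus and brain stem. Slc17a8 (VGLUT3) is used by small populations, many of which also release another transmitter, such as serotonin neurons and some interneurons.

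Slc17a7 (ENSMUSG00000070570, chromosome 7 from 45163921 to 45176138) and Slc17a6 (ENSMUSG00000030500, chromosome 7 from 51621830 to 51671125) both lie on the plus strand of mouse chromosome 7 (mm10). Slc17a8 (ENSMUSG00000019935) lies on the minus strand of chromosome 10 from 89574020 to 89621253. The GABA genes are all on the plus strand of chromosome 2, with Slc32a1 (ENSMUSG00000037771) from 158610767 to 158615748, Gad1 (ENSMUSG00000070880) from 70553072 to 70602014 and Gad2 (ENSMUSG00000026787) from 22622205 to 22693874. All 6 are protein-coding. An antisense gene, Gm14205, overlaps 697 exonic bases of Slc32a1 (24.9%), and its estimated count was at most 0.0092 in any library. The library kit does not mark strand, so reads of both genes in that stretch could not be told apart by strand. The longest identical run between the transcripts of Slc17a7 and Slc17a6 was 21 bases, and it was 17 bases between Gad1 and Gad2, against reads of 150 bases.

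The results below turn on the ratio of Slc17a7 to Slc17a6, so the 250 bases just upstream of both genes' starts are shown 5′ to 3′ (RefSeq, GRCm38.p6), at chr7:45163671-45163920 and chr7:51621580-51621829, both on the plus strand. Capitals mark GC boxes, searched as GGGCGG or CCGCCC, of which runs that overlap were joined.
Slc17a7: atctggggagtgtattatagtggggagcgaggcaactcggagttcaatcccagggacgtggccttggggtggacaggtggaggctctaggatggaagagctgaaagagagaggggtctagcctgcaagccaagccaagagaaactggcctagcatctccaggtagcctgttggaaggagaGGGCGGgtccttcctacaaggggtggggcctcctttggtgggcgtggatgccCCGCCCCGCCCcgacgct
Slc17a6: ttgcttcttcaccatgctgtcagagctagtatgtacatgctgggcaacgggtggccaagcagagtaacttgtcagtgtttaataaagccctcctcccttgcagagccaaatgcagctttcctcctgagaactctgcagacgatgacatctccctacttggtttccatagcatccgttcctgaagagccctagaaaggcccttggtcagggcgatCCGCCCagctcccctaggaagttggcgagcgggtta
The Slc17a7 window held 3 GC boxes, 9 CpG sites and 61.2% G and C, and the Slc17a6 window held 1 GC box, 7 CpG sites and 53.2% G and C. Both windows held 1 E-box (CANNTG) and 0 TATA boxes (TATAAA or TTTATA). Of 32851 such windows, 32.7% held a GC box, 66.2% an E-box and 12.4% a TATA box, and the median G and C content was 52.4%.

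The 6 libraries held from 11123917 to 12505561 estimated counts each. With edgeR's quasi-likelihood test and Benjamini-Hochberg adjustment, 0 of 16337 genes tested had an adjusted p-value under 0.05 (0%), and 333 had an unadjusted p-value under 0.05 (2.04%). DESeq2's Wald test gave 3 genes past the adjusted threshold. Sgo1 itself was at 0 to 7 estimated counts in WT and 0 to 4 in Sgo1-/+, too few to check the genotype. WT replicate 1 stood apart from the other 5 libraries, with a mean Pearson's r of 0.944 across genes against 0.974 to 0.977, where genes are not independent replicates. The fold changes of the members, the ratios and the list medians are therefore given with and without it.

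None of the 6 members passed the test, and for each of them the normalized counts of WT and Sgo1-/+ overlapped. Over all genes tested, the groups did not overlap in 6.85%. Every member had an adjusted p of 0.9999 by edgeR's quasi-likelihood test, and 0 of 6 had an unadjusted p-value under 0.05. For 3 members WT replicate 1 lay outside the range of all other libraries by over 2-fold, with Slc17a7 and Slc17a8 lower and Slc17a6 higher. In bulk RNA, fewer cells of a type and less RNA per cell cannot be told apart.

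Slc17a7 had normalized counts (estimated counts scaled to a common library size) of 2218, 9925 and 11303 across WT replicates 1 to 3, and of 9455, 9577 and 11153 across the Sgo1-/+ replicates. WT replicate 1 lay far under the rest, and the other 5 libraries lay close together. WT had a mean of 7815 ± 4896 (SD, n = 3) and Sgo1-/+ one of 10062 ± 947 (SD, n = 3). Sgo1-/+ against WT gave a log2 fold change of 0.36 (SE 0.527, p = 0.9 in an exact two-sided permutation test), which became -0.08 (SE 0.120) without WT replicate 1. The level in WT replicate 1 was 4.79-fold lower than the mean of WT replicates 2 and 3.

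Slc17a6 showed the opposite order in WT, with normalized counts of 2134, 390 and 384 in replicates 1 to 3. In Sgo1-/+ replicates 1 to 3 it had 378, 574 and 902, the same order as Slc17a7. WT replicate 1 was the highest of all libraries and 5.51-fold above the mean of the other WT libraries, and Sgo1-/+ replicate 3 was the next highest. WT had a mean of 969 ± 1009 (SD, n = 3) and Sgo1-/+ one of 618 ± 265 (SD, n = 3). An exact two-sided permutation test of these means gave p = 0.8. The log2 fold change was -0.65 (SE 0.714, unadjusted p = 0.394 in edgeR's quasi-likelihood test). Without WT replicate 1 the sign turned, to 0.68 (SE 0.321, unadjusted p = 0.0715 in edgeR's quasi-likelihood test). WT replicates 2 and 3 and Sgo1-/+ replicate 1 then formed the low end, at 378 to 390.

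Slc17a8 was the scarcest member. It reached 20.6, 85.9 and 72.5 normalized counts across WT replicates 1 to 3, and 85.4, 126 and 73.7 across the Sgo1-/+ replicates. WT replicate 1 was again the lowest, 3.84-fold under the mean of the other WT libraries, and Sgo1-/+ replicate 2 was the highest. The log2 fold change was 0.67 (SE 0.507, p = 0.3 in an exact two-sided permutation test), against 0.26 (SE 0.284) without WT replicate 1.

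**Figure D1:**
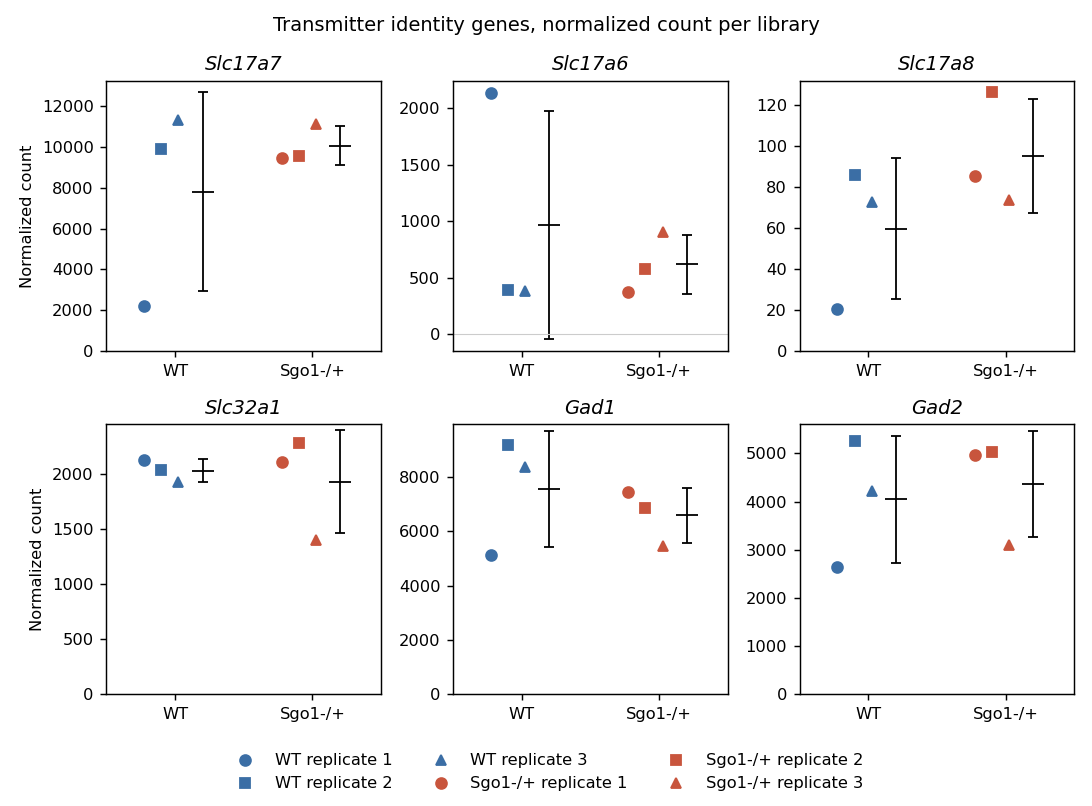
Normalized counts of the 6 members, with 1 panel per gene, a linear axis from 0 or below and 1 point per library, WT in blue and Sgo1-/+ in red. Black bars give mean ± SD (n = 3). The circle of WT replicate 1 lies apart from the other libraries for Slc17a7 (2218), Slc17a6 (2134) and Slc17a8 (20.6), but not for Slc32a1 (2127).

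Slc32a1, the vesicular GABA transporter (VGAT), was the steadiest member in WT. Its 3 WT libraries were at 2127, 2029 and 1921 normalized counts, a coefficient of variation of 5.08%. In Sgo1-/+ replicates 1 to 3 the values were 2106, 2280 and 1395, so that replicate 3 was the lowest library and the other 5 lay within 1921 to 2280. The log2 fold change was -0.07 (SE 0.189, p = 0.9 in an exact two-sided permutation test), and -0.04 (SE 0.197) without WT replicate 1. WT replicate 1, the library with the outlying glutamate transporter values, was 1.08 times the mean of WT replicates 2 and 3.

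Gad1 encodes GAD67, the decarboxylase that supplies most basal GABA. Across WT replicates 1 to 3 it was at 5132, 9166 and 8365 normalized counts, and across the Sgo1-/+ replicates at 7430, 6838 and 5458. WT replicate 1 was the lowest library, and WT replicates 2 and 3 were the 2 highest. The log2 fold change was -0.20 (SE 0.241, p = 0.5 in an exact two-sided permutation test). Without WT replicate 1 it was -0.41 (SE 0.144), the groups no longer overlapped (as in 18% of genes), and edgeR's quasi-likelihood test gave an unadjusted p of 0.0223 (adjusted p = 0.9995). In that fit, 3.77% of 16617 genes had an unadjusted p-value under 0.05, and Gad1 was the only member that did. Olfactory bulb and oligodendrocyte markers also separated these libraries. The 7 olfactory bulb markers summed to 190 and 154 CPM in WT replicates 2 and 3 and to 90.2, 22.4 and 13.4 CPM in Sgo1-/+ replicates 1 to 3, the order of Gad1 itself, and all 7 were higher in both WT libraries than in any Sgo1-/+ library, although the methods leave the bulb out. WT replicate 1 was at 38.2 CPM. The 5 oligodendrocyte markers were all lower in both WT libraries (4163 and 4505 CPM) than in Sgo1-/+ (5863 to 10434 CPM). Gad2 and Slc32a1 did not keep the order of the olfactory bulb sums, and how many of all genes keep it was not counted. The part of the olfactory bulb and oligodendrocyte markers in the Gad1 values was not tested.

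Gad2 encodes GAD65, the decarboxylase found mainly at synaptic terminals. The WT libraries, in the order of their numbers, were at 2647, 5267 and 4231 normalized counts and the Sgo1-/+ libraries at 4974, 5023 and 3106. The lowest values were those of WT replicate 1 and Sgo1-/+ replicate 3, and the highest was that of WT replicate 2. The log2 fold change was 0.11 (SE 0.293, p = 0.7 in an exact two-sided permutation test). Leaving out WT replicate 1 gave -0.12 (SE 0.217), and leaving out Sgo1-/+ replicate 2 gave -0.0074.

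**Figure D2:**
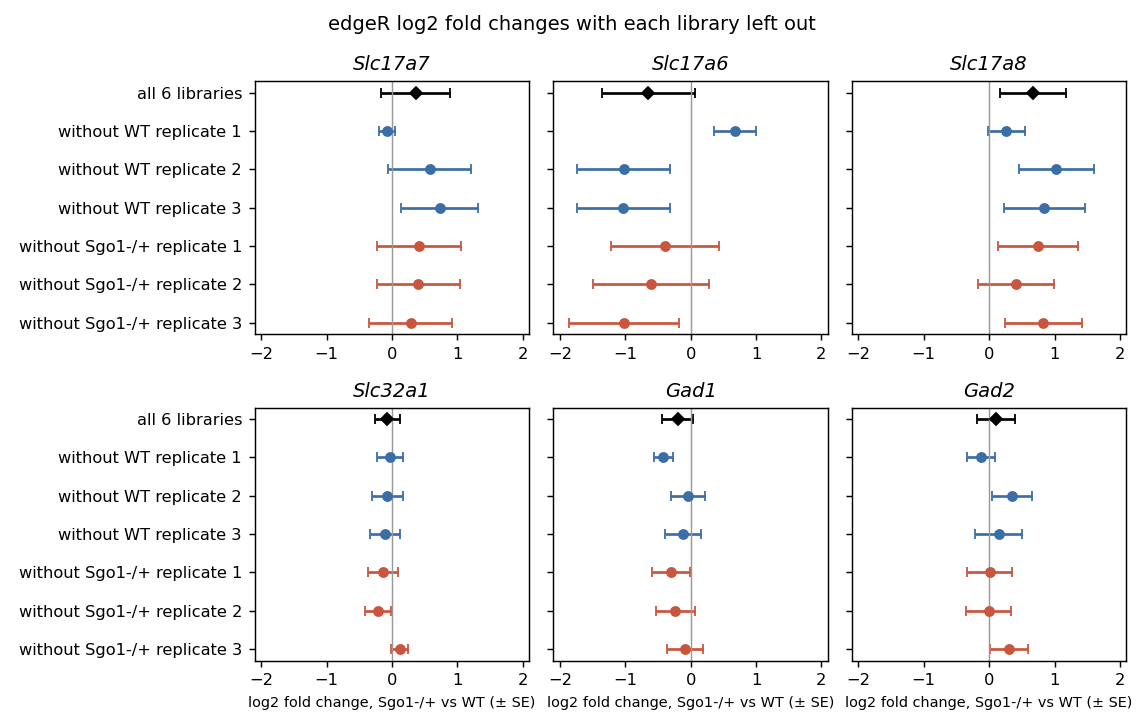
Log2 fold changes of Sgo1-/+ against WT (x axis) from edgeR with all 6 libraries (black) and with each library left out in turn (blue for WT, red for Sgo1-/+). Bars are ± 1 SE. For Slc17a6 the value turned from -0.65 to 0.68 without WT replicate 1, and for Slc17a7 from 0.36 to -0.08.

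Values of single libraries were set against the rest of the genome. In WT replicate 1, Slc17a7 was 4.26-fold and Slc17a8 3.51-fold under the lowest of the other 5 libraries, and 4.70% of all genes tested lay at least 2-fold under. Slc17a6 was 2.37-fold above the highest of the other 5 libraries, and 1.70% of genes lay at least 2-fold above. Gad1 and Gad2 were also lowest in WT replicate 1, but at 1.06-fold and 1.17-fold under the next library. Slc32a1 was lowest in Sgo1-/+ replicate 3, at 1.38-fold under the next library. An edgeR interaction of genotype and sex passed in 3.67% of genes, Slc17a7 and Slc17a8 among them, but the only WT male is WT replicate 1, so the term cannot be told apart from that library's low values.

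The ratio of Slc17a7 to Slc17a6 within a library does not depend on its scaling. Per estimated count it was 1.04 in WT replicate 1 (exact 95% binomial interval 0.979 to 1.104), 25.4 in WT replicate 2 (23.0 to 28.1) and 29.5 in WT replicate 3 (26.6 to 32.7). The Sgo1-/+ replicates were at 25.0 (22.6 to 27.8), 16.7 (15.3 to 18.2) and 12.4 (11.5 to 13.2). These intervals cover counting error only, since reads that carry no molecular identifier need not be independent. WT replicate 1 was far under all others, and among the remaining 5 libraries the range was 12.4 to 29.5. Divided by transcript length, the ratio was 1.47 in WT replicate 1 and 17.5 to 41.8 in the others. WT averaged 18.6 ± 15.4 (SD, n = 3) and Sgo1-/+ 18.0 ± 6.42 (SD, n = 3). The mean log2 ratio was 0.91 higher in Sgo1-/+ (exact two-sided permutation test over 20 groupings, p = 1, the smallest possible being 0.1). Without WT replicate 1 the direction turned, to -0.66 (exact two-sided permutation test over 10 groupings, p = 0.2), where Sgo1-/+ replicates 1 to 3 all lay under both WT libraries, replicate 1 by less than the counting error.

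**Figure D3:**
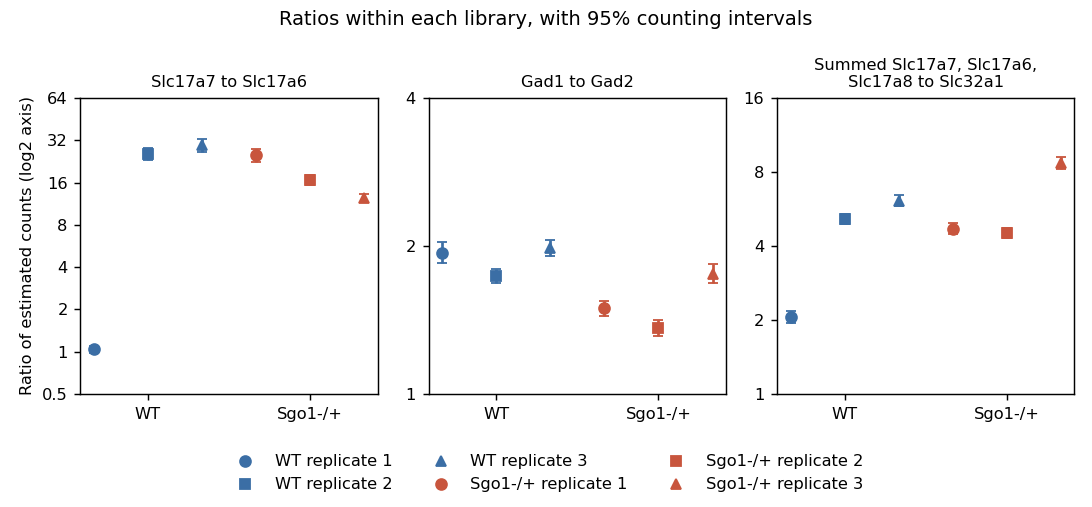
Ratios of estimated counts within each library on log2 axes, with exact 95% counting intervals, for Slc17a7 to Slc17a6, Gad1 to Gad2 and the summed vesicular glutamate transporters to Slc32a1. The Slc17a7 to Slc17a6 ratio was 1.04 in WT replicate 1 and at least 12.4 elsewhere, and the Gad1 to Gad2 ratios of WT (1.74 to 1.98) and Sgo1-/+ (1.36 to 1.76) overlapped narrowly.

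Gad1 and Gad2 make the same enzyme activity, and their ratio varied much less. The WT libraries were at 1.94, 1.74 and 1.98 and the Sgo1-/+ libraries at 1.49, 1.36 and 1.76. The groups overlapped only between WT replicate 2 and Sgo1-/+ replicate 3, whose counting intervals (1.68 to 1.80 and 1.68 to 1.84) also overlapped. WT averaged 1.89 ± 0.127 (SD, n = 3) and Sgo1-/+ 1.54 ± 0.202 (SD, n = 3), a log2 difference of -0.30 (p = 0.2, exact two-sided permutation test). WT replicate 1, although lowest for both genes, had a ratio within the range of the other WT libraries. Without it the difference was -0.28 (exact two-sided permutation test, p = 0.3).

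The summed counts of Slc17a7, Slc17a6 and Slc17a8 against those of Slc32a1 gave ratios of 2.06, 5.13 and 6.12 in WT replicates 1 to 3. The ratios were 4.71, 4.51 and 8.69 in Sgo1-/+ replicates 1 to 3. WT replicate 1 was the lowest and Sgo1-/+ replicate 3 the highest, and the log2 difference was 0.51 (p = 0.6, exact two-sided permutation test). Without WT replicate 1 it was 0.02 (exact two-sided permutation test, p = 1). Benjamini-Hochberg adjustment over the 3 ratios compared gave exact permutation p-values of 1 for Slc17a7 to Slc17a6, 0.6 for Gad1 to Gad2 and 0.9 for the summed transporters.

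Levels of different genes were compared per transcript length, as CPM (counts scaled to library size) per kilobase. In 5 of 6 libraries the order was the same, namely Slc17a7, Gad1, Gad2, Slc32a1, Slc17a6 and Slc17a8 from highest to lowest. Over these 5 libraries Slc17a7 ranged from 269 to 321, Gad1 from 135 to 226, Gad2 from 44.8 to 76.0, Slc32a1 from 41.3 to 67.5, Slc17a6 from 7.58 to 18.1 and Slc17a8 from 1.35 to 2.35 CPM per kb. Gad2 and Slc32a1 were the only neighbours whose ranges overlapped, although Gad2 was higher within each of these libraries. In WT replicate 1 the order was Gad1 (127), Slc17a7 (63.0), Slc32a1 (63.0), Slc17a6 (42.7), Gad2 (38.2) and Slc17a8 (0.384 CPM per kb). Slc17a7 and Slc32a1 were there at nearly one level, and Slc17a6 stood above Gad2.

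Markers of brain regions and cell types were summed per library and set beside the members. Of all 16337 genes tested, 4586 were highest and 4940 lowest in WT replicate 1. In WT replicate 1, the summed CPM of 9 brain stem markers was 343 against 6.05 to 17.3 in the other 5 libraries, and 8 of the 9 were highest there. Hoxb3, Hoxb5, Hoxc5, Hoxd3, Slc6a2 and Lhx4 had a count of 0 in at least 2 of the other libraries and in WT replicate 1 had counts above 0. The 7 cerebellar granule cell markers summed to 1391 against 38.8 to 107 and the 7 Purkinje cell markers to 3251 against 1049 to 1351, and all 14 were highest in WT replicate 1. The 10 markers of cortex and hippocampus projection neurons summed to 297 against 599 to 689, with 8 lowest in WT replicate 1, and the 9 striatum markers to 369 against 1252 to 2972, with all 9 lowest. The last 2 lists are of regions in the stated tissue, and cerebellum and medulla were stated to be left out of it. Summed markers of neurons of any kind were 6164 against 6264 to 8201, and those of oligodendrocytes 11079 against 4163 to 10434. The 3 serotonin neuron markers, whose cells are one known source of Slc17a8, were all highest in WT replicate 1 (10.5 against 1.30 to 2.84 CPM), where Slc17a8 was lowest. Their part in the values of Slc17a7, Slc17a6 and Slc17a8 was not tested.

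Sgo1-/+ replicate 3, the library with the next highest Slc17a6, had the highest sum of 8 thalamus markers, at 383 against 53.9 to 122 CPM, and 7 of the 8 were highest there. The 10 cortex and hippocampus projection neuron markers also had their highest sum there, at 689 against 297 to 679 CPM, with 7 of the 10 highest. How many of all genes were highest in this library was not counted. The 8 hypothalamus markers summed to 37.3 CPM in it, against 21.9 to 86.5 elsewhere. Of these, Pmch (274 against 0.993 to 18.8 normalized counts) and Hcrt (101 against 0 to 8.11) were highest there. Without WT replicate 1, 5 of the 8 hypothalamus markers were lowest there. The brain stem sum of this library was the lowest of all at 6.05 CPM. Only 1 of the 9 brain stem markers, Chat, was lowest there without a tie, at 39.3 normalized counts against 102 to 194 elsewhere. Without WT replicate 1, 3 of the 9 were highest in this library. Its oligodendrocyte sum was 10434 CPM. It also had the lowest striatum sum after WT replicate 1, at 1252 against 1564 to 2972 CPM, in the library where Slc32a1 was lowest and Gad1 and Gad2 were the lowest after WT replicate 1. The 8 cortical interneuron markers summed to 890.5 CPM, within the range of the other libraries (653 to 1074), and without WT replicate 1 this library held the lowest value for 3 of the 8, Vip, Lhx6 and Reln, and the highest for Pvalb and Kcnc1. The part of these regions in the Slc17a6 and GABA gene values was not tested.

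**Figure D4:**
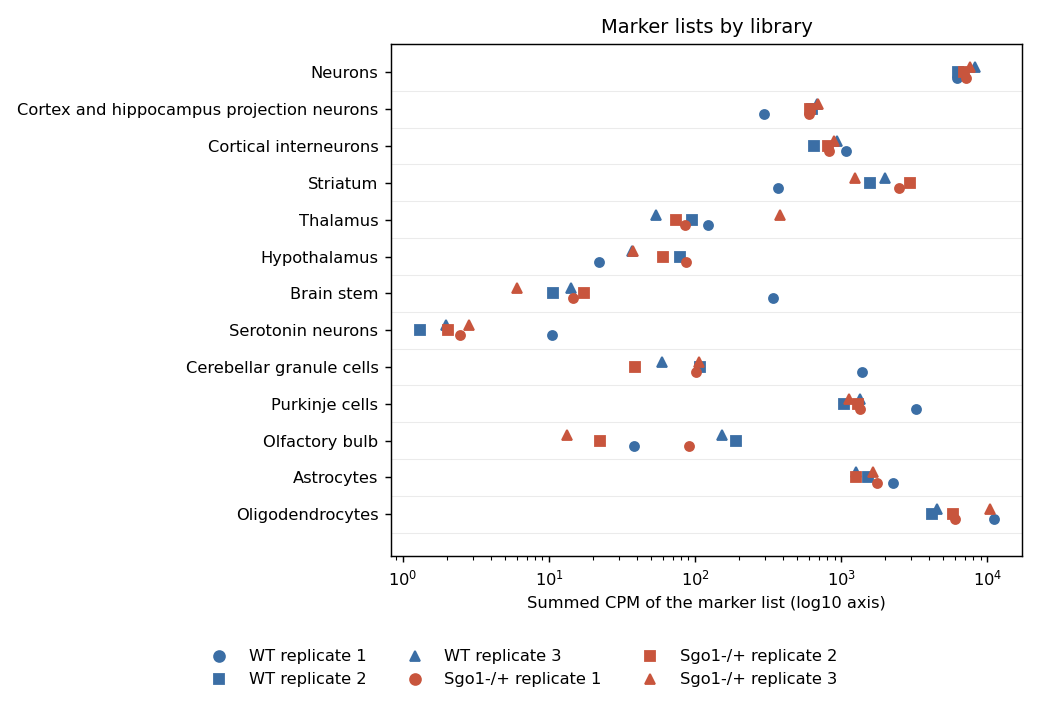
Summed CPM (log10 axis) of the 13 marker lists, with 1 point per library in the colors and shapes of the other plots. WT replicate 1 is at 343 for brain stem and 1391 for granule cells against at most 17.3 and 107 elsewhere, and Sgo1-/+ replicate 3 is at 383 for thalamus.

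The other genes of the pathways were described by 5 lists of 39 genes in all. Of the 36 that passed the filter on low counts, 0 had an adjusted and 0 an unadjusted p-value under 0.05 in edgeR's quasi-likelihood test, against 2.04% of all genes for the unadjusted. The median log2 fold change over all genes tested was -0.0007, and 0.005 without WT replicate 1. Slc17a9 and Slc18a1 were under the filter, and Slc18a3 was matched to no row.

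Glutamate supply and uptake had a median log2 fold change of 0.04 over 15 genes, and 0.03 without WT replicate 1. Glul, the glutamine synthetase of astrocytes, was at 17202, 20285 and 16432 normalized counts in the WT libraries and at 21167, 16214 and 19117 in the Sgo1-/+ libraries, with no library apart. Got1, an aminotransferase that makes glutamate, ranged from 4383 to 5006. Slc1a2, the main astrocyte glutamate transporter, was at 14711 in WT replicate 1, against 25090 to 28829 elsewhere. Slc1a3, the second astrocyte transporter, ranged from 6280 to 8849. Slc1a6, the transporter of Purkinje cells, was at 892 in WT replicate 1, against 102 to 152 elsewhere, and is named after its values were seen.

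GABA uptake and breakdown had a median log2 fold change of -0.20 over 6 genes, and -0.02 without WT replicate 1. Abat, the enzyme that breaks GABA down, ranged from 4713 to 6514 normalized counts, with the highest value in WT replicate 1. Slc6a11, a GABA transporter of astrocytes, was at 4853 in WT replicate 1 and at 2414 to 3135 elsewhere. Of the list of other vesicular transporters and Slc17 relatives, Slc17a5 (sialic acid) and Slc18a2 (monoamines) were tested, with log2 fold changes of -0.05 and -0.02. Without WT replicate 1 these were -0.19 and 0.48 (unadjusted p = 0.0837 for Slc18a2 in edgeR's quasi-likelihood test). The median of this list was -0.03, and 0.14 without WT replicate 1.

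Of 8 factors of glutamate neurons, 6 were lowest in WT replicate 1, as were 4940 of all 16337 genes tested. Tbr1, a factor of deep cortical layers, was at 48.7 normalized counts there and at 913 to 1359 in the other 5 libraries, and Neurod6 was at 115 against 406 to 1133. Neurod2 was at 704, within the range of 606 to 850 elsewhere, and Neurod1, which granule cells also express, was at 1352 against 87.7 to 190. The list's median log2 fold change was 0.47 and was 0.04 without WT replicate 1.

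All 5 factors of forebrain GABA neurons were lowest in WT replicate 1, where 4940 of all 16337 genes tested were lowest. Dlx1 was at 18.3 normalized counts there and at 325 to 921 in the other 5 libraries, Lhx6 at 10.1 against 209 to 421 and Dlx6 at 9.06 against 102 to 259. Slc32a1, in contrast, was at 2127 in WT replicate 1 and 1395 to 2280 elsewhere. Slc6a5, a glycine transporter gene among the brain stem markers, was at 2653 in WT replicate 1 and 1.01 to 40.6 elsewhere. The part of glycine neurons in the Slc32a1 values was not tested. The list's median log2 fold change was -0.24, and leaving out WT replicate 1 made it -0.80. In the edgeR fit without it, 2 of the 5 factors passed 0.05 before adjustment (3.77% of all genes), both lower in Sgo1-/+, and none passed after it (adjusted p = 0.9995 in edgeR's quasi-likelihood test). Their log2 fold changes were -0.80 for Dlx1 and -1.01 for Dlx5, with unadjusted edgeR values of 0.0141 and 0.0161. Lhx6 was at 0.23 and Dlx6 at -0.26 in that fit, and neither passed. Gad1 was lower in the same fit, with an unadjusted p of 0.0223, while Slc32a1 and Gad2 were at -0.04 and -0.12. Dlx1 followed the order of the olfactory bulb marker sums over these 5 libraries, with 921, 673, 605, 438 and 325 normalized counts against 190, 154, 90.2, 22.4 and 13.4 CPM. None of the other factors of the list kept that order, with Dlx5 at 160, 144, 85.4, 97.3 and 43.5 and Lhx6 at 252, 299, 336, 421 and 209. How many of all genes keep it was not counted, and the part of the bulb in these values was not tested.

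**Figure D5:**
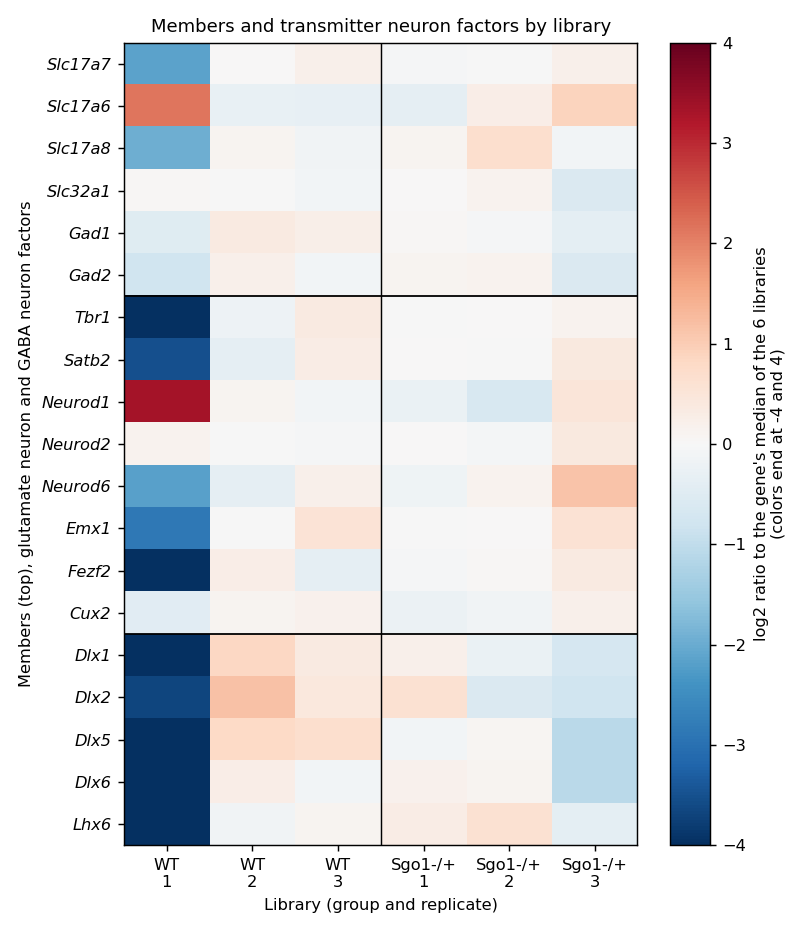
Log2 ratio of each gene's normalized count to its median over the 6 libraries, lower in blue and higher in red, for the 6 members (top), 8 factors of glutamate neurons (middle) and 5 factors of forebrain GABA neurons (bottom). In WT replicate 1 all 5 GABA neuron factors are at or near the blue end, while Slc32a1 is at 0.04, and Slc17a6 (2.15) and Neurod1 are red.

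The genes most like each member were found over 15902 genes and the 6 libraries, by the root mean square (RMS) difference of log2 CPM centred at each gene's median. Slc17a7 was most like Sprn (0.0857), AC119189.1 (0.0889) and Ak5 (0.0909), and 57 genes lay within 0.2. Slc17a6 had few such genes, with 2 within 0.2, Slc29a4 (0.126), a monoamine and cation transporter, and Hsd11b1 (0.153), followed by Plekhd1 (0.224). Slc29a4 was at 444 normalized counts in WT replicate 1, 188 in Sgo1-/+ replicate 3 and 88.0 to 110 elsewhere. Slc17a8 had 8 genes within 0.2, with Rem2 (0.171), Fras1 (0.174) and Plk2 (0.179) nearest.

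The GABA genes had many more like them at the same distance. Slc32a1 had 656 genes within 0.2, with Prps1l3 (0.0532), Glt25d2 (0.0562) and Plk4 (0.0743) nearest, Gad1 had 514, with Pitpnm3 (0.0623), Xrn1 (0.0716) and Arhgap19 (0.0767) nearest, and Gad2 had 171, with Ets2 (0.0548), D630023F18Rik (0.0620) and Armcx5 (0.0715) nearest. Over the 6 libraries the highest value of a GABA gene was at most 1.99 times its lowest, against at least 5.10 times for the glutamate transporters. Without WT replicate 1 the order turned for Slc17a7, which spanned 1.20-fold against 1.63-fold to 1.70-fold for the GABA genes, 1.74-fold for Slc17a8 and 2.38-fold for Slc17a6. The counts within 0.2 then became 7009 for Slc17a7, 11 for Slc17a6, 384 for Slc17a8, 1276 for Slc32a1, 1285 for Gad1 and 394 for Gad2, and the nearest gene was another one for each member, such as Plekhd1 for Slc17a6 (0.0652). This alternative was chosen after seeing the data. Neither Gad gene was among the 3 nearest of the other.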

How the data were processed

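Total RNA of frozen brain from 6 mice was sequenced as paired reads of 150 bases on an Illumina MiSeq, with Illumina's TruSeq V2 RNA kit, which does not mark strand. Per the study's methods, the authors aligned the reads to mm10 in Strand NGS 2.1. The deposited table gives, without normalization, the estimated count of every library over 38087 Ensembl genes. The submitters' processing notes also list BWA and edgeR. The Ensembl release and the counting's strand setting are not given in the sources used here. Columns were assigned to samples by the Br number in their names, and the sex-linked genes matched the labelled sex in 6 of 6 libraries. The 6 columns of the authors' normalized values and their fold-change columns, which hold their own comparison, were not used.

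Estimated counts were rounded to whole numbers and fitted with edgeR 4.0.16 (TMM, default filter on low counts, quasi-likelihood test, no covariates) in R 4.3.3, with Benjamini-Hochberg adjustment over 16337 genes and a threshold of 0.05. The standard error (SE) is the log2 fold change divided by the square root of F. To normalize, an estimated count was divided by its library size after TMM scaling, then multiplied by the mean size. Exact two-sided permutation tests compared mean normalized counts for single genes and mean log2 values for ratios. Levels per kb use the length of the principal transcript (GENCODE M21). The fits were also run on simulated counts that shared a single dispersion and in which no library stood apart, unlike WT replicate 1 here. No 2 libraries agreed within sampling noise (smallest chi-square per gene 8.93). Labels name 1 mouse per library.

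The members and lists were chosen with earlier results of these data known. All members were named. Of each list, genes with an unadjusted p-value under 0.05, otherwise up to 4 with the highest count per length, were named, and for each member the 3 most alike genes of at least 1 mean CPM. Of the genes in the lists, 3 are not reported here and were left out of the counts and sums. Slc1a6 and Dlx5 were chosen after seeing their values. The alternatives were DESeq2 1.42.0, DESeq2's size factors in edgeR, no filter, a minimum of 10 counts per library, limma 3.58.1 on log2 of DESeq-normalized counts plus 1, a term for sex, a block for the replicate number and each library left out. For ratios, linear means, division by transcript length and females only were tried.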

Additional observations from a re-analysis of the deposited data

Results flagged for a closer look

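The term for a difference of the Sgo1-/+ effect between males and females passed the threshold for 2 members in edgeR's quasi-likelihood test, as for 600 of the 16337 genes (3.67%). It rests on 1 male per genotype, and the WT male is WT replicate 1, so the values below cannot be told apart from the values of that library. For Slc17a7 the difference of the log2 fold changes, male minus female, was 2.15 (SE 0.266, adjusted p = 0.0151), with 2.11 in males and -0.04 in females. For Slc17a8 it was 2.64 (SE 0.490, adjusted p = 0.0426), with 2.61 in males and 0.01 in females. For Slc17a6 it was -2.62 (adjusted p = 0.0828), for Gad1 0.86 (0.199), for Gad2 1.16 (0.197) and for Slc32a1 0.27 (0.735), none of which passed. With n = 3 per group no library was tested for lying outside its group.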

How the results depend on the processing

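No member passed an adjusted p of 0.05 under any of the 13 alternatives. Over all genes, 0 passed in edgeR, 3 with DESeq2's Wald test and 0 to 1 with each library left out (1 without Sgo1-/+ replicate 2). Members changed sign as follows. Without WT replicate 1, Slc17a7 was at -0.077, Slc17a6 at 0.68 and Gad2 at -0.12. Gad2 was at -0.0074 without Sgo1-/+ replicate 2 and Slc32a1 at 0.11 without Sgo1-/+ replicate 3. With each library left out, Slc17a7 ranged from -0.077 to 0.73, Slc17a6 from -1.03 to 0.68, Slc17a8 from 0.26 to 1.03, Slc32a1 from -0.22 to 0.11, Gad1 from -0.41 to -0.04 and Gad2 from -0.12 to 0.35. The Slc17a7 to Slc17a6 log2 difference was -0.66 without WT replicate 1 (range with each library left out -0.66 to 1.75), -0.64 in females only, and the linear ratios differed by -0.64. The Gad1 to Gad2 difference lay between -0.40 and -0.20, and that of the vesicular transporters between 0.02 and 0.81 on the log2 scale. Apart from the sign changes named, the cause of which was not tested beyond the left-out library itself, directions held.

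Same-numbered libraries deviated from their group means with r of -0.15, 0.03 and -0.20, which showed no pairing of the mice by replicate number. Such values from 3 libraries per group cannot exclude a pairing. With the replicate number as a block, 0 genes passed the adjusted threshold, 280 had an unadjusted p under 0.05 against 333, and Slc17a7 was at 0.64, Slc17a6 at -0.15, Slc17a8 at 0.83, Slc32a1 at -0.10, Gad1 at -0.17 and Gad2 at 0.13. The blocked ratio differences were 0.91, -0.30 and 0.51.

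With 3 libraries per group, 1 of them apart, the biological coefficient of variation was 25.9%, and 17.6% without WT replicate 1. The members had at least 20.5 estimated counts in every library, so depth limited Slc17a8 most. In the pathway lists, 0 genes had an unadjusted p under 0.05 with all libraries, 1 with DESeq2, with sex or with the block, 2 without the filter and 0 to 5 with each library left out (5 without WT replicate 3). Over all genes tested, the counts were 333 with all libraries, 368 with DESeq2, 332 with sex and 280 with the block, each of 16337. They were 563 of 26061 without the filter, 1040 of 16741 without WT replicate 3 and 240 to 626 with each other library left out.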
